A study of Mus musculus with 6 samples.

Results

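Cells make cholesterol and fatty acids from acetyl-CoA along separate branches, and 32 genes of these branches are described here. They were taken by their place in the pathway and not by their readings, though earlier results of these data were known. There were 18 enzymes of the sterol branch, 6 genes that regulate it or carry sterol in the cell, and 8 fatty acid branch enzymes. Each gene was read from the probe set that carries its symbol alone and had the largest mean signal over the 6 arrays. Such a probe set was found for 31 of the 32 genes, among 18193 genes on the array. The sterol branch gene Acat2 had none, so its expression was not analysed here and it enters the promoter counts alone. Every one of the 31 passed the filter on dim probe sets, with mean signals of 138 to 6684 units against a filter at 10.4 units.

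The RNA came from B16-F1, a mouse melanoma cell line of the C57BL/6J strain. Its cells had been made to express lentiviral shRNAs stably, in 3 lines with 2 biological replicates each. The first line carried an shRNA against macroH2A1 and the second an shRNA against macroH2A2, which are histone H2A variants with a large non-histone domain, encoded by Macroh2a1 and Macroh2a2. The control line carried an shRNA against GFP, so every line had been through viral transduction. All were grown in DMEM with fetal bovine serum, which supplies lipoprotein cholesterol. The number of shRNA sequences per target, and whether a line was a clone or a pool, are not given in the sources used here. Replicate numbers 1 and 2 recur in every line.

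Sterol synthesis runs from acetyl-CoA through mevalonate and the isoprenoid diphosphates to squalene, which is closed into lanosterol and then trimmed and reduced to cholesterol. Fatty acid synthesis starts from cytosolic acetyl-CoA and malonyl-CoA and yields palmitate, which elongases and desaturases then modify. Both branches are under the SREBP transcription factors, encoded by Srebf1 and Srebf2. When membrane sterol is plentiful, the Insig proteins hold the SREBPs and their escort Scap in the endoplasmic reticulum. When sterol falls, Scap carries them to the Golgi, where proteases release the part that enters the nucleus. SREBP-2 acts mostly on sterol genes and SREBP-1c mostly on fatty acid genes, and NF-Y and Sp1 commonly bind beside them.

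Promoters from RefSeq (GRCm38.p6), reaching from 250 bases before to 50 bases after a gene's start, were at hand for 25 of the 32 genes. Fdps, Fdft1, Sqle, Stard4, Scd1, Scd2 and Fads1 were not in that table. Motifs were searched on both strands: TCACNCCAC, a form of the sterol regulatory element, CCAAT, the NF-Y box, and GGGCGG, the Sp1 box. TCACNCCAC was found in 1 of 15 sterol branch genes, Hmgcs1, in 0 of 5 regulators and in 0 of 5 fatty acid branch genes. It was found in 1.24% of all 32851 promoters and 1.44% of all genes. CCAAT was found in 14 of 15 sterol branch genes, in 4 of 5 regulators and in 2 of 5 fatty acid branch genes, beside 37.4% of all promoters and 41.1% of all genes. GGGCGG was found in 14 of 15, 5 of 5 and 2 of 5 genes of these groups, beside 35.7% of all promoters and 38.2% of all genes. These letters describe the window, and factor binding was not measured. The 250 bases before the start are printed for the gene that holds all of these motifs and, beside it, for Insig1 and Acly, the genes of the other groups in the table with the largest mean signal. Capitals mark the motifs on either strand, so that CCAAT on the other strand reads ATTGG and GGGCGG reads CCGCCC, and no marked runs overlap.
Hmgcs1, chr13:119690101-119690350, plus strand: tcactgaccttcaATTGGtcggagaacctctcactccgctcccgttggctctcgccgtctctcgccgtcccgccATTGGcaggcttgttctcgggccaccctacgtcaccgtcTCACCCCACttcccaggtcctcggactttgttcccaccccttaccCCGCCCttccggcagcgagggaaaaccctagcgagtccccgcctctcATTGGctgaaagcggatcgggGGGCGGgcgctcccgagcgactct
Insig1, chr5:28071162-28071411, plus strand: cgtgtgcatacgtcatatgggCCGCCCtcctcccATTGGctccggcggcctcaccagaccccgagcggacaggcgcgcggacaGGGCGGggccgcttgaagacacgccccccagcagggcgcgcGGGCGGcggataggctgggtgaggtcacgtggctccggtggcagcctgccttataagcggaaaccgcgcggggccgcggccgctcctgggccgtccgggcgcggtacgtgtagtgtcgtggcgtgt
Acly, chr11:100528001-100528250, minus strand: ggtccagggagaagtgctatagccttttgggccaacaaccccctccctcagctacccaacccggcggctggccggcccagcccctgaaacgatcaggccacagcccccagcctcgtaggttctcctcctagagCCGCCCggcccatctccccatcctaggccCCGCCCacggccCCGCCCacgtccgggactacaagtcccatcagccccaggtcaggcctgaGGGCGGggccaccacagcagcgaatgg
Hmgcs1 shows 1 TCACNCCAC, 3 CCAAT and 2 GGGCGG matches, Insig1 shows 1 CCAAT and 3 GGGCGG matches, and Acly shows 4 GGGCGG matches and neither of the others.

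The 6 arrays had been scaled to the same trimmed mean of 150.0 signal units, and their median signals ran from 15.1 to 24.6 units, the highest on control replicate 1. Macroh2a1 read 444.2 and 319.1 units in macroH2A1 shRNA cells, 1271 and 1170.5 in macroH2A2 shRNA cells and 1213 and 1262 in control cells, a ratio of 0.308 of macroH2A1 shRNA over control means. Macroh2a2 lay below the filter, at a mean of 6.55 units over the arrays. It read 3.5 and 2 units in macroH2A1 shRNA cells, 11.9 and 8.3 in macroH2A2 shRNA cells and 6.1 and 7.5 in control cells. Its probe set therefore does not check the macroH2A2 label. The 10 melanocyte markers summed to 41630 to 53298 units on every array. Of other cell types, the 8 leukocyte markers found summed to 80.8 to 117.9 units, the 7 fibroblast markers to 108.7 to 185 units, the 4 adipocyte markers to 9.3 to 28.5 units and the 5 hepatocyte markers to 14.8 to 46.4 units. Because each array holds RNA of a whole culture, fewer cells with a transcript and less of it per cell cannot be told apart.

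Relative to the control line, the sterol branch stood higher in both macroH2A lines on the replicate 1 arrays and not on the replicate 2 arrays. On replicate 1, 17 of 17 sterol enzymes read higher in macroH2A1 shRNA cells than in control cells, with a median log2 difference of 0.42, and 16 of 17 read higher in macroH2A2 shRNA cells, with a median of 0.37. On replicate 2, the counts were 6 of 17 with a median of -0.11 in macroH2A1 shRNA cells and 4 of 17 with a median of -0.04 in macroH2A2 shRNA cells. Log2 values here and below are of signal + 16, which understates the change of dim probe sets. Over all 27025 probe sets tested, macroH2A1 shRNA had medians of -0.05 on replicate 1 and 0.0027 on replicate 2, and macroH2A2 shRNA had medians of -0.08 and 0.01. Both sets of differences use the same 2 control arrays.

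**Figure D1:**
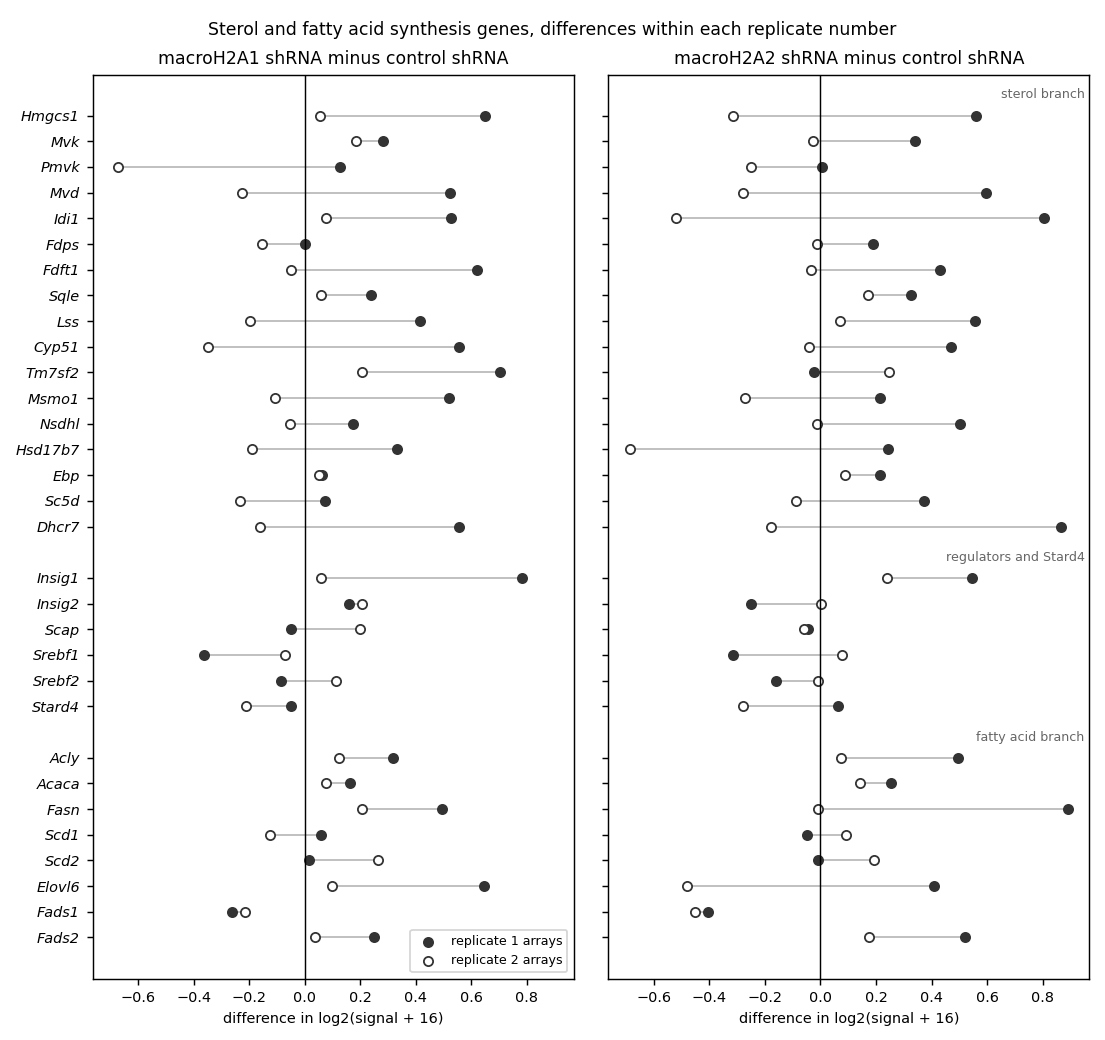
Difference from control in log2(signal + 16), horizontal axis, of each of the 31 genes (rows, by sterol branch, regulators with Stard4, and fatty acid branch) for macroH2A1 shRNA (left) and macroH2A2 shRNA (right), with filled points for the replicate 1 arrays, open points for the replicate 2 arrays and a line joining them. The filled points of the sterol branch lie right of 0 in 17 of 17 and 16 of 17 genes, and the open points in 6 and 4.

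In 10 of the 17 sterol enzymes both lines read above control on replicate 1 and below control on replicate 2, beside 7.23% of all tested probe sets. These were Pmvk, Mvd, Fdps, Fdft1, Cyp51, Msmo1, Nsdhl, Hsd17b7, Sc5d and Dhcr7, which span the pathway from mevalonate to the last reductions. Some of these margins were narrow, as for Fdps in macroH2A1 shRNA cells and Pmvk in macroH2A2 shRNA cells on replicate 1, where the log2 differences were 0.0013 and 0.005, and with quantile normalization the count was 9. On the probe set next in signal, Cyp51 kept this pattern in both lines, and Mvd, Fdft1, Msmo1, Hsd17b7 and Sc5d did not. Fdft1 and Sc5d there read above control in both lines on both replicate numbers. On replicate 2, Fdft1 read 773 units in macroH2A1 and 801.1 in macroH2A2 shRNA cells against 714.5 in control cells. Sc5d read 143 and 145.9 units against 116.6. On the brightest probe sets, the same pattern was found in 0 of 6 regulators and 0 of 8 fatty acid enzymes. Reading above control in both lines on both replicate numbers, which held for 11.5% of all tested probe sets, was seen for Sqle and Ebp in the sterol branch, for Insig1 among the regulators, and for Acly, Acaca and Fads2 in the fatty acid branch. Fads1 was the only gene of the 31 that read below control in both lines on both numbers, beside 16.0% of all tested probe sets.

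No gene of the 31 passed the test in any comparison of lines (limma, 2 against 2 arrays, Benjamini-Hochberg adjusted p under 0.05 over all tested probe sets). For macroH2A1 shRNA against control 0% of all tested probe sets passed, or 0.192% with the replicate number as a block, and the smallest adjusted p among the 31 genes was 1 without and 0.448 with the block. For macroH2A2 shRNA against control 0% passed, or 0.144% with the block, and the smallest adjusted p among them was 1 without and 0.318 with the block. At an unadjusted limma p under 0.05 there was 1 gene in macroH2A1 shRNA cells and 2 in macroH2A2 shRNA cells, among 1189 and 1075 of all tested probe sets. With the block there were 2 and 5 genes, among 2388 and 2426 of all tested probe sets. The directions given here are therefore readings of 4 arrays and not called changes.

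Pooled over both replicate numbers, 14 of 17 sterol enzymes read higher in macroH2A1 shRNA cells than in control cells and 14 of 17 in macroH2A2 shRNA cells, beside 44.4% and 44.3% of all tested probe sets. The median log2 differences were 0.15 and 0.15, beside -0.03 and -0.03 for all tested probe sets. The arrays of a line and of the control did not overlap, with the macroH2A line higher, for 3 of 17 sterol enzymes in each comparison, near the 13% of all tested probe sets for which this held in either. Without control replicate 1 the sterol medians were -0.04 in macroH2A1 shRNA cells and 0.0075 in macroH2A2 shRNA cells, and 6 and 9 of 17 enzymes read higher. Without macroH2A1 shRNA replicate 1 the median in those cells was 0.02. With any 1 array left out it ran from -0.04 to 0.31 in macroH2A1 shRNA cells and from 0.0075 to 0.26 in macroH2A2 shRNA cells.

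Among the mevalonate enzymes, Hmgcs1, the cytosolic HMG-CoA synthase, read 2903 and 2148 signal units in macroH2A1 shRNA cells, 2728 and 1658 in macroH2A2 shRNA cells and 1847 and 2068 in control cells. On this probe set both macroH2A1 shRNA arrays were above both control arrays, and the macroH2A2 shRNA arrays lay on either side of them. Its log2 difference was 0.35 ± 0.24 (SE) in macroH2A1 shRNA cells (adjusted p = 1), with 0.65 on the replicate 1 arrays and 0.05 on the replicate 2 arrays. In macroH2A2 shRNA cells it was 0.56 on the replicate 1 arrays and -0.32 on the replicate 2 arrays. In every other Hmgcs1 probe set the macroH2A1 shRNA and control arrays overlapped, as at 2779.9 and 1947.1 against 2016.5 and 1914.7 units. Mvk, mevalonate kinase, read 146.2 and 151.8 in macroH2A1 shRNA cells, 152.6 and 129.2 in macroH2A2 shRNA cells and 117.3 and 131.8 in control cells. Again the macroH2A1 shRNA arrays were both above control, by 0.23 ± 0.18 (SE) on the log2 scale (adjusted p = 1). On a second Mvk probe set they overlapped control, at 95.6 and 96.8 against 97.3 and 89.7 units. Pmvk, the next kinase of the pathway, read 234.3 and 174.5 in macroH2A1 shRNA cells, 214 and 239.3 in macroH2A2 shRNA cells and 213.2 and 287.8 in control cells. Control replicate 2 was the highest of its 6 arrays, and the log2 difference in macroH2A1 shRNA cells was 0.13 on the replicate 1 arrays and -0.67 on the replicate 2 arrays. Mvd, which decarboxylates mevalonate diphosphate to isopentenyl diphosphate, read 198 and 153.1 in macroH2A1 shRNA cells, 209.4 and 146.8 in macroH2A2 shRNA cells and 133 and 181.6 in control cells. In each macroH2A line the replicate 1 array was the higher and in the control line the replicate 2 array was. Idi1, the isomerase of isopentenyl diphosphate, read 818.5 and 970.2 in macroH2A1 shRNA cells, 997.2 and 636.3 in macroH2A2 shRNA cells and 563.4 and 918.8 in control cells. Its lowest array was control replicate 1, and its log2 difference in macroH2A2 shRNA cells was 0.81 on the replicate 1 arrays and -0.52 on the replicate 2 arrays. Fdps, farnesyl diphosphate synthase, read 2823 and 2785 in macroH2A1 shRNA cells, 3219.6 and 3076 in macroH2A2 shRNA cells and 2820 and 3102 in control cells, a narrow span in which the groups against control overlapped.

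From squalene to lanosterol, Fdft1, the squalene synthase, read 1393 and 1128 signal units in macroH2A1 shRNA cells, 1219 and 1140.5 in macroH2A2 shRNA cells and 901 and 1168 in control cells. Control replicate 1 was the lowest array and the other control array lay within the range of the macroH2A lines. The log2 difference was 0.62 on the replicate 1 arrays and -0.05 on the replicate 2 arrays in macroH2A1 shRNA cells, 0.28 ± 0.17 (SE) pooled (adjusted p = 1). Sqle, the squalene epoxidase, read 917 and 723.9 in macroH2A1 shRNA cells, 973.8 and 784.6 in macroH2A2 shRNA cells and 773.8 and 694.8 in control cells. Both macroH2A2 shRNA arrays were above both control arrays, by 0.25 ± 0.17 (SE) on the log2 scale (adjusted p = 1). Lss, lanosterol synthase, read 317.6 and 274.8 in macroH2A1 shRNA cells, 351.2 and 334 in macroH2A2 shRNA cells and 234 and 317.6 in control cells. Here too the macroH2A2 shRNA arrays were both above control, by 0.31 ± 0.19 (SE) on the log2 scale (adjusted p = 1), with 0.55 on the replicate 1 arrays and 0.07 on the replicate 2 arrays.

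Among the enzymes that turn lanosterol into cholesterol, Cyp51, the lanosterol demethylase, read 1096 and 806 signal units in macroH2A1 shRNA cells, 1032 and 1002 in macroH2A2 shRNA cells and 741.1 and 1031 in control cells. Control replicate 1 was again the lowest, and the log2 difference in macroH2A1 shRNA cells was 0.55 on the replicate 1 arrays and -0.35 on the replicate 2 arrays. Tm7sf2, a sterol reductase, read 190 and 163.3 in macroH2A1 shRNA cells, 108.5 and 168.4 in macroH2A2 shRNA cells and 110.6 and 139.5 in control cells. Both macroH2A1 shRNA arrays were above both control arrays, by 0.45 ± 0.24 (SE) on the log2 scale (adjusted p = 1, or 0.529 with the block), the largest pooled difference of the sterol branch in that comparison. Msmo1, which oxidises the sterol methyl groups, read 2506 and 1827 in macroH2A1 shRNA cells, 2026 and 1629 in macroH2A2 shRNA cells and 1745 and 1969.7 in control cells. Its highest array was macroH2A1 shRNA replicate 1, and the macroH2A2 shRNA arrays lay on either side of the control arrays. Nsdhl, the dehydrogenase that acts after it, read 702.4 and 738 in macroH2A1 shRNA cells, 884.4 and 760 in macroH2A2 shRNA cells and 620.2 and 766.7 in control cells. For Nsdhl the macroH2A2 shRNA difference was 0.24 ± 0.15 (SE) on the log2 scale (adjusted p = 1), with 0.50 on the replicate 1 arrays and -0.01 on the replicate 2 arrays. Hsd17b7, the sterol ketone reductase, read 239.4 and 185.9 in macroH2A1 shRNA cells, 223.9 and 127.2 in macroH2A2 shRNA cells and 186.8 and 214.2 in control cells. Its lowest array was macroH2A2 shRNA replicate 2. Ebp, a sterol isomerase, read 1022 and 1111 in macroH2A1 shRNA cells, 1137 and 1141 in macroH2A2 shRNA cells and 978.9 and 1071 in control cells, with both macroH2A2 shRNA arrays above control by 0.15 ± 0.12 (SE) on the log2 scale. Sc5d, a sterol desaturase, read 547.1 and 627.9 in macroH2A1 shRNA cells, 678.3 and 695.4 in macroH2A2 shRNA cells and 519.7 and 740.9 in control cells. Control arrays were the lowest and the highest of its 6 values. Dhcr7, which reduces dehydrocholesterol to cholesterol, read 587.6 and 569.8 in macroH2A1 shRNA cells, 732.9 and 562 in macroH2A2 shRNA cells and 395 and 638.5 in control cells. The spread between the control arrays was the widest of the 3 lines, and the log2 difference in macroH2A2 shRNA cells was 0.87 on the replicate 1 arrays and -0.18 on the replicate 2 arrays (0.34 ± 0.23 (SE) pooled, adjusted p = 1).

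**Figure D2:**
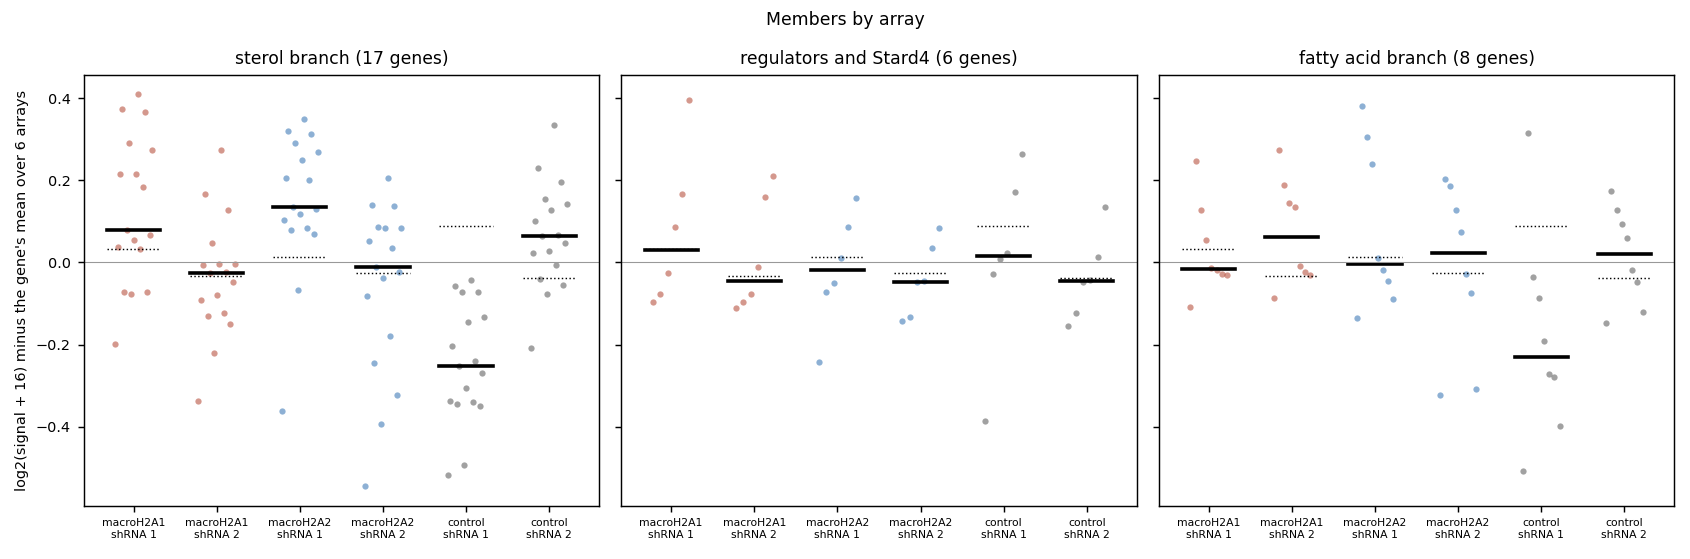
Each gene's log2(signal + 16) minus its mean over the 6 arrays (vertical axis) on each array, with macroH2A1 shRNA and macroH2A2 shRNA left of control and a panel for each of the sterol branch, regulators with Stard4, and fatty acid branch; points are genes, thick bars their medians and dotted bars the median of all tested probe sets. The sterol median is -0.25 on control replicate 1 and between -0.03 and 0.13 on the other 5 arrays.

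Of the regulators, Insig1, an endoplasmic reticulum anchor of the Scap and SREBP complex and itself an SREBP target, was the only one above control on both replicate numbers in both lines. It read 1466 and 1038 signal units in macroH2A1 shRNA cells, 1241 and 1177 in macroH2A2 shRNA cells and 846.2 and 996 in control cells. The ratio of mean signals over control was 1.36 for macroH2A1 shRNA and 1.31 for macroH2A2 shRNA, and in each line both arrays were above both control arrays. The log2 difference was 0.42 ± 0.18 (SE) in macroH2A1 shRNA cells (limma unadjusted p = 0.0478, adjusted p = 1, or 0.448 with the block), with 0.78 on the replicate 1 arrays and 0.06 on the replicate 2 arrays. In macroH2A2 shRNA cells it was 0.39 ± 0.18 (SE) (adjusted p = 1, or 0.493 with the block), with 0.54 on the replicate 1 arrays and 0.24 on the replicate 2 arrays.

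Insig2, the related anchor, read 1088 and 1082 signal units in macroH2A1 shRNA cells, 815.3 and 936.3 in macroH2A2 shRNA cells and 972.5 and 935.4 in control cells. The macroH2A1 shRNA arrays were above control by 0.18 ± 0.13 (SE) on the log2 scale (adjusted p = 1), and the macroH2A2 shRNA difference was -0.12 with overlapping arrays. On the other Insig2 probe sets the macroH2A1 shRNA arrays overlapped control. Srebf1, which encodes SREBP-1, read 503.7 and 498.3 in macroH2A1 shRNA cells, 521.2 and 553.5 in macroH2A2 shRNA cells and 651.4 and 523.8 in control cells. Both macroH2A1 shRNA arrays were below both control arrays, at a log2 difference of -0.22 ± 0.15 (SE) (adjusted p = 1), and the macroH2A2 shRNA arrays overlapped the control. Srebf2, which encodes SREBP-2, read 353.1 and 329.1 in macroH2A1 shRNA cells, 334.7 and 301.5 in macroH2A2 shRNA cells and 375.6 and 303.4 in control cells. In every line the replicate 1 array was the higher, and both comparisons with control overlapped. Scap, the SREBP escort, read 547.9 and 672.3 in macroH2A1 shRNA cells, 549.8 and 559.5 in macroH2A2 shRNA cells and 567.5 and 583.7 in control cells, and both macroH2A2 shRNA arrays were below control, at a log2 difference of -0.05. Stard4, a sterol transport protein, read 309.6 and 298.2 in macroH2A1 shRNA cells, 336 and 284.1 in macroH2A2 shRNA cells and 320.8 and 347.9 in control cells. Its macroH2A1 shRNA arrays were both below control, at a log2 difference of -0.13 ± 0.16 (SE) (adjusted p = 1). The median of the 6 genes was 0.04 in macroH2A1 shRNA cells, with 4 higher and 2 lower, and -0.10 in macroH2A2 shRNA cells, with 1 higher and 5 lower.

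The fatty acid branch had medians above control in both lines on both replicate numbers. In macroH2A1 shRNA cells 6 of 8 enzymes read higher than in control cells, with a median log2 difference of 0.14, and 7 and 6 of 8 read higher on replicates 1 and 2 with medians of 0.21 and 0.09. In macroH2A2 shRNA cells 6 of 8 read higher, with a median of 0.15, and 5 of 8 on either number, with medians of 0.33 and 0.08. Of all tested probe sets, 42.2% and 50.2% read higher on replicates 1 and 2 in macroH2A1 shRNA cells. In macroH2A2 shRNA cells these shares were 40.5% and 51.5%. Without control replicate 1 the fatty acid median was 0.06 in macroH2A1 shRNA cells, and it was 0.25 without control replicate 2. In macroH2A2 shRNA cells it ran from 0.08 to 0.28 with any 1 array left out.

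Acly, the ATP citrate lyase that supplies cytosolic acetyl-CoA, read 2163 and 1946 signal units in macroH2A1 shRNA cells, 2446 and 1878 in macroH2A2 shRNA cells and 1731 and 1785 in control cells. Both macroH2A lines were above both control arrays, by 0.22 ± 0.15 (SE) in macroH2A1 shRNA cells (adjusted p = 1) and by 0.28 ± 0.15 (SE) in macroH2A2 shRNA cells (adjusted p = 1) on the log2 scale. Acaca, the acetyl-CoA carboxylase, read 212.1 and 254.3 in macroH2A1 shRNA cells, 227 and 267.3 in macroH2A2 shRNA cells and 187.9 and 240.4 in control cells. The replicate 2 array was the higher in every line. Fasn, the fatty acid synthase, read 978.1 and 1127 in macroH2A1 shRNA cells, 1291 and 968.7 in macroH2A2 shRNA cells and 689.6 and 974.5 in control cells. Control replicate 1 was the lowest array, and both macroH2A1 shRNA arrays were above both control arrays. Its log2 difference was 0.35 ± 0.21 (SE) in macroH2A1 shRNA cells (adjusted p = 1) and 0.44 ± 0.21 (SE) in macroH2A2 shRNA cells (adjusted p = 1), where it was 0.89 on the replicate 1 arrays and -0.0085 on the replicate 2 arrays.

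Elovl6, an elongase of long-chain fatty acids, read 462.4 and 470.7 signal units in macroH2A1 shRNA cells, 390.2 and 309.6 in macroH2A2 shRNA cells and 289.8 and 438.1 in control cells. The macroH2A1 shRNA arrays were above control by 0.37 ± 0.21 (SE) on the log2 scale (adjusted p = 1), and the macroH2A2 shRNA difference was 0.41 on the replicate 1 arrays and -0.48 on the replicate 2 arrays. Scd1, a stearoyl-CoA desaturase, read 1604 and 1601 in macroH2A1 shRNA cells, 1488 and 1863 in macroH2A2 shRNA cells and 1539 and 1746 in control cells, with overlap in both comparisons with control. Scd2, its paralogue, read 6588 and 7373 in macroH2A1 shRNA cells, 6469 and 7022 in macroH2A2 shRNA cells and 6511 and 6139.6 in control cells. Its macroH2A1 shRNA arrays were above control by 0.14 on the log2 scale. Another Scd2 probe set, at a mean of 908 units, went the other way in macroH2A1 shRNA cells, at -0.37. There both macroH2A1 shRNA arrays were below both control arrays, and the macroH2A2 shRNA difference was 0.03. The dimmest Scd2 probe set, at 56.5 units, differed by -0.07 in macroH2A1 shRNA cells and 0.06 in macroH2A2 shRNA cells.

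Fads1 and Fads2, the desaturases of polyunsaturated fatty acid synthesis, read in opposite directions in both lines. Fads1 read 547.9 and 494.8 signal units in macroH2A1 shRNA cells, 494.4 and 418.1 in macroH2A2 shRNA cells and 659.6 and 577.1 in control cells. All 4 macroH2A arrays were below both control arrays, the ratio of mean signals was 0.843 for macroH2A1 shRNA and 0.738 for macroH2A2 shRNA, and the log2 difference in macroH2A2 shRNA cells was -0.43 ± 0.15 (SE) (limma unadjusted p = 0.0249, adjusted p = 1, or 0.318 with the block). Fads2 read 408 and 414.3 in macroH2A1 shRNA cells, 495.4 and 457.5 in macroH2A2 shRNA cells and 340.9 and 403 in control cells. All 4 macroH2A arrays were above both control arrays, and the log2 difference in macroH2A2 shRNA cells was 0.35 ± 0.15 (SE) (limma unadjusted p = 0.0498, adjusted p = 1), against 0.14 in macroH2A1 shRNA cells. A second probe set of Fads1, at a mean of 56.7 units, differed by -0.05 in macroH2A1 shRNA cells and 0.08 in macroH2A2 shRNA cells. The other probe sets of Fads2, at means of 174 and 103 units, differed by 0.10 and -0.02 in macroH2A1 shRNA cells and by 0.13 and 0.06 in macroH2A2 shRNA cells.

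**Figure D3:**
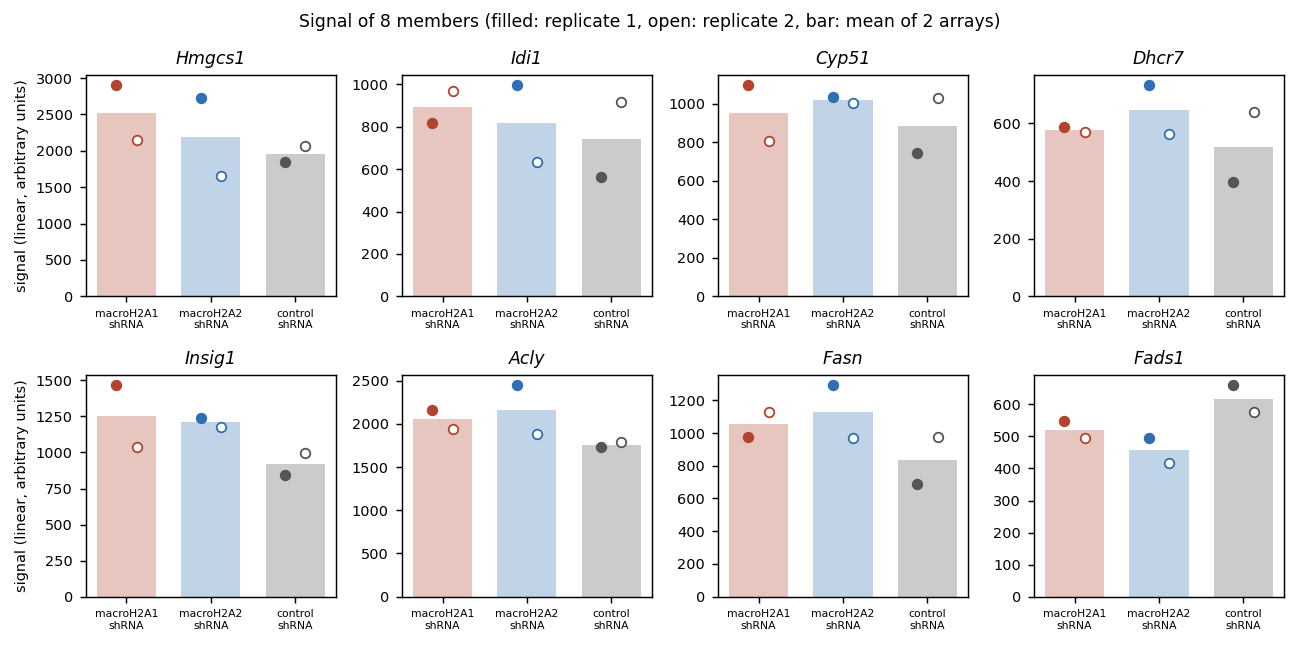
Signal in linear arbitrary units (vertical axis, from 0) of 8 genes in macroH2A1 shRNA, macroH2A2 shRNA and control cells, with a filled point for replicate 1, an open point for replicate 2 and a bar for the mean of the 2 arrays. All 4 macroH2A arrays lie above both control arrays for Insig1 and Acly and below them for Fads1, while for Idi1, Cyp51 and Dhcr7 they overlap the control arrays.

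Over the 31 genes, the arrays of macroH2A1 shRNA and control did not overlap for 13. The macroH2A1 shRNA arrays were higher for 10 of the 31, beside 13% of all tested probe sets, namely Hmgcs1, Mvk, Tm7sf2, Insig1, Insig2, Acly, Fasn, Scd2, Elovl6 and Fads2. They were lower for 3, beside 14.9%, namely Srebf1, Stard4 and Fads1. For macroH2A2 shRNA the arrays were higher than control for 6 of the 31, beside 13%, namely Sqle, Lss, Ebp, Insig1, Acly and Fads2, and lower for 2, Scap and Fads1, beside 16.2%. These are readings of each gene's brightest probe set. Among the genes read higher, the probe set next in signal overlapped control for Hmgcs1, Mvk, Insig2 and Fads2 with macroH2A1 shRNA. With macroH2A2 shRNA it did so for Lss and Fads2. It did not overlap for Elovl6 with macroH2A1 shRNA or for Acly with either.

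The sterol and fatty acid branches differed little in their pooled medians. The sterol median minus the fatty acid median of log2 differences was 0.0069 for macroH2A1 shRNA and 0.0059 for macroH2A2 shRNA. Within replicate numbers it was 0.21 on replicate 1 and -0.20 on replicate 2 for macroH2A1 shRNA. The macroH2A2 shRNA line gave 0.04 and -0.12, so its sign turned with the replicate number in both lines. It was -0.17 without macroH2A1 shRNA replicate 1 and 0.12 without macroH2A1 shRNA replicate 2 in the macroH2A1 comparison, and ran from -0.08 to 0.14 with any 1 array left out in the macroH2A2 comparison. No test was run on these medians, because genes are not replicates of a line.

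Set against each other, the macroH2A lines had a smaller sterol median than either had against control on replicate 1. Of the sterol enzymes 10 of 17 read higher in macroH2A2 shRNA cells than in macroH2A1 shRNA cells, with a median log2 difference of 0.09 (0.08 on replicate 1 and 0.04 on replicate 2), and the medians of the regulators and of the fatty acid branch were -0.06 and 0.06. The sterol median was -0.05 without macroH2A2 shRNA replicate 1 or without macroH2A1 shRNA replicate 2, and the fatty acid median was -0.05 without either macroH2A2 shRNA array and -0.03 without macroH2A1 shRNA replicate 1. Arrays of the lines did not overlap for 10 genes. MacroH2A2 shRNA cells were higher for 7 of the 31, beside 13.3% of all tested probe sets, namely Fdps, Lss, Nsdhl, Ebp, Sc5d, Srebf1 and Fads2. They were lower for 3, beside 14.6%, namely Insig2, Elovl6 and Fads1. Insig2 averaged 876 ± 85.6 units in macroH2A2 shRNA cells and 1085 ± 4.03 units in macroH2A1 shRNA cells (SD, n = 2 each). Its log2 difference was -0.31 ± 0.13 (SE) (limma unadjusted p = 0.0441, adjusted p = 1, or 0.756 with the block). For Elovl6 it was -0.41 ± 0.21 (SE) (adjusted p = 1), for Tm7sf2 -0.34 ± 0.24 (SE), for Fdps 0.17 ± 0.11 (SE), for Msmo1 -0.23 and for Sc5d 0.22. No probe set passed in this comparison (0%, with 739 at an unadjusted limma p under 0.05), and with the block 0.0037% did, none of them among the 31 genes.

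Seen line by line, the turn between replicate numbers came with opposite signs in the macroH2A lines and the control line. The median replicate 1 minus replicate 2 log2 difference of the sterol branch was 0.20 in macroH2A1 shRNA cells, 0.21 in macroH2A2 shRNA cells and -0.30 in control cells, with 12, 13 and 1 of 17 enzymes higher on replicate 1. For the fatty acid branch these medians were -0.02, 0.17 and -0.21, and for all tested probe sets 0.05, 0.03 and 0.11. Of the 27025 tested probe sets, 15179, 14525 and 16942 were higher on replicate 1 in macroH2A1 shRNA, macroH2A2 shRNA and control cells. The control replicate 1 array thus carried the lowest sterol and fatty acid medians, -0.25 and -0.23 on the centred log2 scale, while its median over all tested probe sets was 0.09. The labels do not say what the replicate number stands for, and its part in these differences was not tested.

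A fit with both macroH2A lines as 1 arm, chosen after seeing this pattern, was run on the difference between replicate numbers of the difference from control. Its control arm is 1 array per replicate number, so the spread in it comes from the macroH2A arrays alone and variation between control arrays cannot be estimated. It called 0% of all tested probe sets and 0 of the 31 genes after adjustment (smallest adjusted p of the 31 genes 0.991). At limma's unadjusted p, 4.43% of all tested probe sets and 7 of the 31 genes lay under 0.05, which restates the pattern in the same arrays and is no support for it.

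Between replicate 1 and replicate 2 over the 3 lines, 9.85% of all tested probe sets passed, 2364 higher and 297 lower on replicate 1. None of the 31 genes was among them. The smallest adjusted p was 0.149 for Sqle, at 0.26 ± 0.10 (SE), followed by 0.177 for Hmgcs1, at 0.33 ± 0.14 (SE), and Acaca stood at -0.27 ± 0.12 (SE) (adjusted p = 0.22). Medians were -0.02 for the sterol branch and -0.08 for the fatty acid branch, beside 0.06 for all tested probe sets. With either control array left out they were 0.20 and 0.07, since the contrast then rests on the macroH2A lines alone. With arrays centred on their median they were -0.27 and -0.33. The sign thus depended on the control line, and the size also on the scaling.

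Further genes of sterol handling read about as often above as below control. Of 21 tested genes of isoprenoid use, SREBP processing and sterol uptake, export and transport, 11 read higher and 10 lower than control in either line, with medians of 0.0035 in macroH2A1 shRNA cells and 0.03 in macroH2A2 shRNA cells, and 0 passed. Lbr, the lamin B receptor with sterol reductase activity, read 1255 and 1317 signal units in macroH2A1 shRNA cells, 1674 and 1453 in macroH2A2 shRNA cells and 1587 and 1792 in control cells. Its macroH2A1 shRNA arrays were below control, at a log2 difference of -0.39 ± 0.13 (SE) (adjusted p = 0.984), so it read lower where Tm7sf2, with the same enzyme activity, read higher. Mylip, a ubiquitin ligase that degrades lipoprotein receptors, read 691.7 and 674.6 in macroH2A1 shRNA cells, 698.6 and 1175 in macroH2A2 shRNA cells and 680.1 and 606.7 in control cells. Its macroH2A2 shRNA difference was 0.49 ± 0.23 (SE) (adjusted p = 1), carried mainly by replicate 2. Vldlr, a lipoprotein receptor, read 346.1 and 84.8 in macroH2A1 shRNA cells, 65.3 and 284.9 in macroH2A2 shRNA cells and 471.3 and 177.7 in control cells. The values crossed between lines and replicates, and the macroH2A2 shRNA difference was -2.58 on the replicate 1 arrays and 0.64 on the replicate 2 arrays. Lpcat3, a phospholipid acyltransferase, differed by -0.18 ± 0.12 (SE) in macroH2A1 shRNA cells and -0.34 ± 0.12 (SE) in macroH2A2 shRNA cells, below control on all 4 arrays (adjusted p = 1 and 1). Abca1, a sterol exporter, had a macroH2A1 shRNA difference of -0.97 on the replicate 1 arrays and 0.22 on the replicate 2 arrays, with overlapping arrays. Npc2, a lysosomal sterol carrier, differed by 0.16 in macroH2A1 shRNA cells, also with overlap, and the difference of Mbtps2, an SREBP protease, was -0.19 in macroH2A2 shRNA cells.

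Of 28 tested further genes of fatty acid synthesis, activation and glycerolipid assembly, 12 read higher and 16 lower than control in macroH2A1 shRNA cells, with a median of -0.04, and 13 higher and 15 lower in macroH2A2 shRNA cells, with a median of -0.06. None passed. Acss2, which makes cytosolic acetyl-CoA from acetate, read 194.2 and 146.9 signal units in macroH2A1 shRNA cells, 146.8 and 173.2 in macroH2A2 shRNA cells and 260.2 and 244 in control cells. It was below control on all 4 macroH2A arrays, at log2 differences of -0.53 ± 0.19 (SE) in macroH2A1 shRNA cells and -0.61 ± 0.19 (SE) in macroH2A2 shRNA cells (adjusted p = 1 and 1), whereas Acly, another source of cytosolic acetyl-CoA, read above control on all 4. Me1, the malic enzyme that supplies NADPH, read 278.8 and 335.2 in macroH2A1 shRNA cells, 310.7 and 350.2 in macroH2A2 shRNA cells and 358.7 and 508.7 in control cells. Fabp5, a fatty acid binding protein, read 7757 and 7250.2 in macroH2A1 shRNA cells, 6952 and 6849 in macroH2A2 shRNA cells and 6337 and 6044 in control cells. Me1 was thus below and Fabp5 above control on all 4 macroH2A arrays, with macroH2A1 shRNA differences of -0.46 ± 0.20 (SE) and 0.28 ± 0.09 (SE). Hacd2, a dehydratase of the elongation cycle, differed by 0.34 ± 0.12 (SE) in macroH2A2 shRNA cells (adjusted p = 1), and Acsl4, an acyl-CoA synthetase, by -0.32 in macroH2A1 shRNA cells.

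Fatty acid oxidation, the opposing pathway, gave 14 of 19 tested genes higher and 5 lower in macroH2A1 shRNA cells, with a median of 0.09, and 8 higher and 11 lower in macroH2A2 shRNA cells, with a median of -0.06. None passed. Acadvl, the very long-chain acyl-CoA dehydrogenase, read 172.1 and 208.9 signal units in macroH2A1 shRNA cells, 224 and 245.1 in macroH2A2 shRNA cells and 288.4 and 281.6 in control cells. It was below control on all 4 macroH2A arrays, at a log2 difference of -0.55 ± 0.17 (SE) in macroH2A1 shRNA cells (adjusted p = 0.88, or 0.258 with the block). Eci2, an enoyl-CoA isomerase, read 1484 and 1187 in macroH2A1 shRNA cells, 935.7 and 895.5 in macroH2A2 shRNA cells and 1030.4 and 921.2 in control cells, above control in macroH2A1 shRNA cells by 0.44 ± 0.15 (SE) (adjusted p = 0.984). Its macroH2A2 shRNA minus macroH2A1 shRNA difference was -0.53 ± 0.15 (SE). Etfdh, which passes electrons from acyl-CoA dehydrogenases to ubiquinone, and Slc25a20, the carnitine carrier, differed by -0.28 and 0.29 in macroH2A1 shRNA cells. Cpt1a, the carnitine acyltransferase that admits fatty acids to mitochondria, was higher on replicate 1 than on replicate 2 in every line, by 0.93 ± 0.19 (SE) on the log2 scale (adjusted p = 0.0112). It read 698.7 and 213.5 units in macroH2A1 shRNA cells, 391.2 and 240.2 in macroH2A2 shRNA cells and 519.6 and 363.8 in control cells, on replicates 1 and 2.

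**Figure D4:**
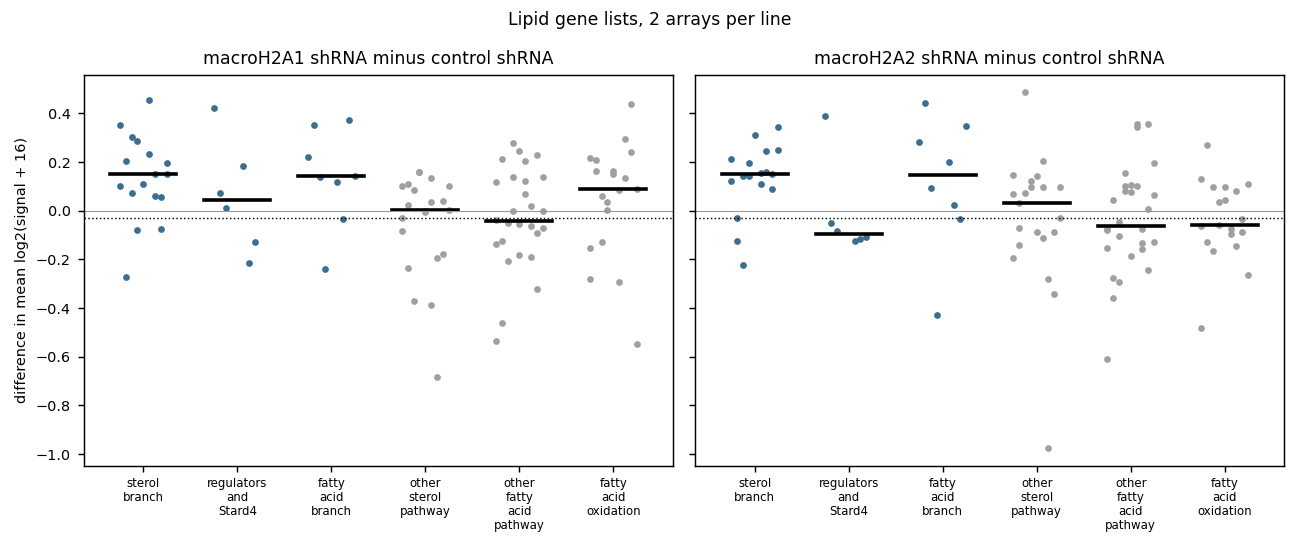
Difference from control in mean log2(signal + 16), vertical axis, of the genes of 6 lists for macroH2A1 shRNA (left) and macroH2A2 shRNA (right); points are genes, thick bars list medians and the dotted line the median of all tested probe sets. The sterol and fatty acid branch medians are 0.15 and 0.14 on the left and 0.15 and 0.15 on the right, and those of the other sterol pathway genes are 0.0035 and 0.03.

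Several probe sets read the same gene for 22 of the 31 genes, and the 31 had 72 probe sets in all, of which 68 were tested. Among the 21 genes with more than 1 tested probe set, all had the same sign for 15 genes in macroH2A1 shRNA cells and for 13 in macroH2A2 shRNA cells. Of the genes described above, Acly, Fads2, Hsd17b7, Insig2, Sc5d and Scd2 had mixed signs for macroH2A1 shRNA. For macroH2A2 shRNA, Elovl6, Fads1, Hmgcs1, Hsd17b7, Scap, Scd1, Srebf2 and Stard4 had mixed signs. With the probe sets of a gene averaged, 9 of 17 sterol enzymes still read above control in both lines on replicate 1 and below on replicate 2.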

How the data were processed

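RNA of 6 cultures, 2 per line, was hybridised to one-colour Affymetrix arrays. Each probe set has 1 deposited intensity per array, on a linear scale. Per the submitters' processing notes it came from MAS5, version not given in the sources used here. They had been scaled to a trimmed mean of 150.0 on every array before deposit, which removes changes in total signal. Groups and replicate numbers came from the labels. Of 45101 probe sets, 64 controls were left out, and the platform annotation gave a single symbol for 34945, several for 932 and none for 9160.

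Signals were analysed as log2(signal + 16), for the 27025 probe sets with a mean signal at or above the 40th percentile, 10.4 units. All arrays entered 1 fit in limma 3.58.1 (lmFit, then eBayes with trended prior variance, under R 4.3.3), with 3 residual and 4.90 prior degrees of freedom, and p-values, two-sided, were adjusted by Benjamini-Hochberg over all tested probe sets at a threshold of 0.05. The steps were tested on simulated data. The replicate contrast was fitted with line and replicate number as terms. Depth does not apply to arrays, and 2 arrays per line limit the precision. Replicate numbers 1 and 2 recur in every line, and no label says what they mark. The replicate 1 minus replicate 2 differences correlated between lines with 0.576, 0.372 and 0.415 over all tested probe sets, so the numbers were taken to pair the arrays. A fit with replicate number as a block (2 residual and 9.09 prior degrees of freedom) is given for the counts that passed and for some genes. The SE and all other adjusted p of line comparisons are from the fit without the block. With the block the smallest adjusted p among the 31 genes was 0.318.

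The genes, lists and tests were chosen with earlier results of these data known, so no list has a test. Values on every array were planned for the genes past the threshold and for the 4 genes of each group with the smallest p per comparison, and for up to 4 genes of each further list, and they are given here for all 31 genes. The alternatives were quantile normalization, median centring, a pseudocount of 1, no filter and a 60th percentile filter, no variance trend, the compared lines alone, each array left out in turn, and the mean over a gene's probe sets.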

Additional observations from a re-analysis of the deposited data

Results flagged for a closer look

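The sterol branch differed from control differently on the 2 replicate numbers. In macroH2A1 shRNA cells its median log2 difference was 0.416 on replicate 1 and -0.107 on replicate 2. In macroH2A2 shRNA cells the medians were 0.374 and -0.0414. On the brightest probe set of 10 of its 17 genes, both lines read above control on replicate 1 and below control on replicate 2. Whether this exceeds the variation between control arrays was not tested, since there is 1 control array per replicate number. All 4 medians share the 2 control arrays.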

How the results depend on the processing

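With 2 arrays per line, and the same 2 control arrays in both comparisons with control, the readings of these genes rest on few arrays, and without control replicate 1 the sterol medians were -0.04 in macroH2A1 shRNA cells and 0.0075 in macroH2A2 shRNA cells. With the replicate number as a block, the probe sets past the threshold numbered 52 for macroH2A1 shRNA against control, 39 for macroH2A2 shRNA against control and 1 for macroH2A2 shRNA against macroH2A1 shRNA, in place of 0 in each, and none of the 31 genes was among them, so the pairing changed no gene's call. Centring arrays on their median gave 3 probe sets for macroH2A1 shRNA against control. With each array left out in turn, macroH2A1 shRNA against control gave fatty acid branch medians of 0.0577 to 0.251 and 6 to 15 of 17 sterol enzymes higher, and the sterol minus fatty acid branch difference was -0.172 to 0.123. For macroH2A2 shRNA against control, 9 to 16 sterol enzymes read higher and the sterol minus fatty acid branch difference was -0.0762 to 0.139. For macroH2A2 shRNA against macroH2A1 shRNA, the sterol median was -0.0535 to 0.132, the fatty acid median -0.0519 to 0.0586, their difference -0.0949 to 0.184, and 6 to 14 sterol and 3 to 5 fatty acid enzymes read higher. For replicate 1 against replicate 2, where 2661 probe sets passed, 1085 did with quantile normalization, 301 with no filter, 1182 with the 60th percentile filter and 1320 to 3942 with an array left out. There, 1 of the 31 genes, Acaca, passed with arrays centred on their median, where the sterol median was -0.265 and the fatty acid median -0.326, and 0 to 1 passed with an array left out, Hmgcs1 without either control array and Idi1 without either macroH2A2 shRNA array. With an array left out the sterol median ran from -0.0482 to 0.197 and the fatty acid median from -0.108 to 0.0742. Uncalled signs turned in 24 of 434 values for each comparison with control and in 27 of 434 between the macroH2A lines, in 16, 15 and 18 of the 31 genes. For replicate 1 against replicate 2 they turned in 53 of 372 values, in 21 genes, and 5 values crossed the threshold. Signs could not turn under the filter settings or without the variance trend, which leave a gene's difference unchanged. Between lines the same holds for the block, for the compared lines alone and for leaving out an array of the line not compared. The shares of turned signs are therefore low in part by design. No called value turned. The cause of these changes was not tested.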
